A study of Mus musculus with 6 samples.

Results

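Kinesin, dynein and dynactin genes encode the motors that carry cargo along microtubules. They were taken from the deposited table as every gene whose symbol begins with Kif or Klc and a digit, with Dync or Dynl, or with Dctn and a digit. This gave 77 of the 54309 genes in the table: 19 anterograde cargo kinesins, 11 mitotic kinesins, 16 other kinesins, 25 dynein genes and 6 dynactin genes. The libraries come from dorsal root ganglia (DRG) of lumbar levels L4-6 of male C57bl/6 mice aged 8 to 10 weeks. One group had been given AAV-GFP, an adeno-associated virus that delivers green fluorescent protein, and the other AAV-Leptin-GFP, which delivers the hormone leptin together with GFP. Both sciatic nerves received the virus 4 weeks before a dorsal column axotomy (DCA), a cut of the central sensory axons in the spinal cord, and the ganglia were taken 24 hours after the cut. Both groups therefore carried a virus and GFP, and both were injured, and no uninjured or virus-free group was analysed here. Ganglia were dissociated and the cells enriched for neurons on an albumin gradient, and each group has 3 libraries. The promoter of the virus, the share of neurons that it reached, and whether a library holds 1 animal or several are not given in the sources used here. The p-values below thus reflect the scatter among these libraries, which may be technical in part.

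In an axon, microtubules point with their plus ends away from the cell body. Most cargo kinesins walk toward the plus end and carry vesicles, mitochondria and cytoskeletal parts outward, whereas cytoplasmic dynein 1, which needs its cofactor dynactin, walks back toward the cell body with endosomes and injury signals. Sensory neurons of the DRG have among the longest axons of the body and depend on both directions, and the same kinesin superfamily also holds motors of the mitotic spindle and of cilia.

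Values are TPM, which correct a transcript's abundance for its length and sum to 1000000 in every library, so levels of different genes can be compared per length but the number of reads is unknown. Transcript values were summed by gene. Genes whose mean over the 6 libraries reached 1 TPM were tested with limma on log2(TPM + 1), AAV-Leptin-GFP minus AAV-GFP. A log2 fold change on this scale understates the change of low genes, and a gene was called at a Benjamini-Hochberg adjusted p under 0.05 over all tested genes. Means are given ± SD over the 3 libraries of a group. All 10 sensory neuron markers were present, at 15982 ± 233 with AAV-GFP against 15332 ± 98 with AAV-Leptin-GFP in summed TPM, but 6 satellite glia markers summed to 8806 ± 623 with AAV-GFP against 7599 ± 354 with AAV-Leptin-GFP, 7 myelinating Schwann cell markers to 975 ± 16.8 with AAV-GFP against 884 ± 39.7 with AAV-Leptin-GFP and 9 macrophage markers to 83.6 ± 10.4 with AAV-GFP against 83 ± 4.26 with AAV-Leptin-GFP. Markers of a list did not all move with its sum. Of the Schwann cell markers, 2 had a log2 fold change above 0 and 5 below. Of these 7, 1 was called higher, where 1.54% of all tested genes were. For satellite glia 2 markers lay above 0 and 4 below, for neurons 2 and 8, and for macrophages 3 and 6. In bulk RNA, fewer cells of a type and less RNA per cell cannot be told apart. The motor genes together held 10179, 10265 and 10471 TPM in the AAV-GFP libraries and 9937, 10154 and 9932 TPM in the AAV-Leptin-GFP libraries.

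As a set, the motor genes lay close to the background of all genes. Of the 77 members, 56 were tested, and their median log2 fold change was -0.0022 beside -0.00016 for the 15108 tested genes. A single member, the dynein light chain gene Dynlt1c, was called higher and none was called lower, where 1.54% of all tested genes were called higher and 0.0662% lower. At an unadjusted p under 0.05, 3 members were higher (Dynlt1c, Kif13b and Kif19a) beside 11.3% of all genes, and 5 were lower (Dynll1, Dctn3, Dynlrb1, Dynlt5 and Dynlt3) beside 8.19%. All 3 AAV-Leptin-GFP libraries lay above all 3 AAV-GFP libraries for 5 of the 56 and below them for 8, where 13.3% and 11.9% of all genes did so. These shares are near or below the background. Under the 16 other settings of filter, scaling, moderation and libraries, 0 or 1 member was called higher and 0 lower.

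**Figure D1:**
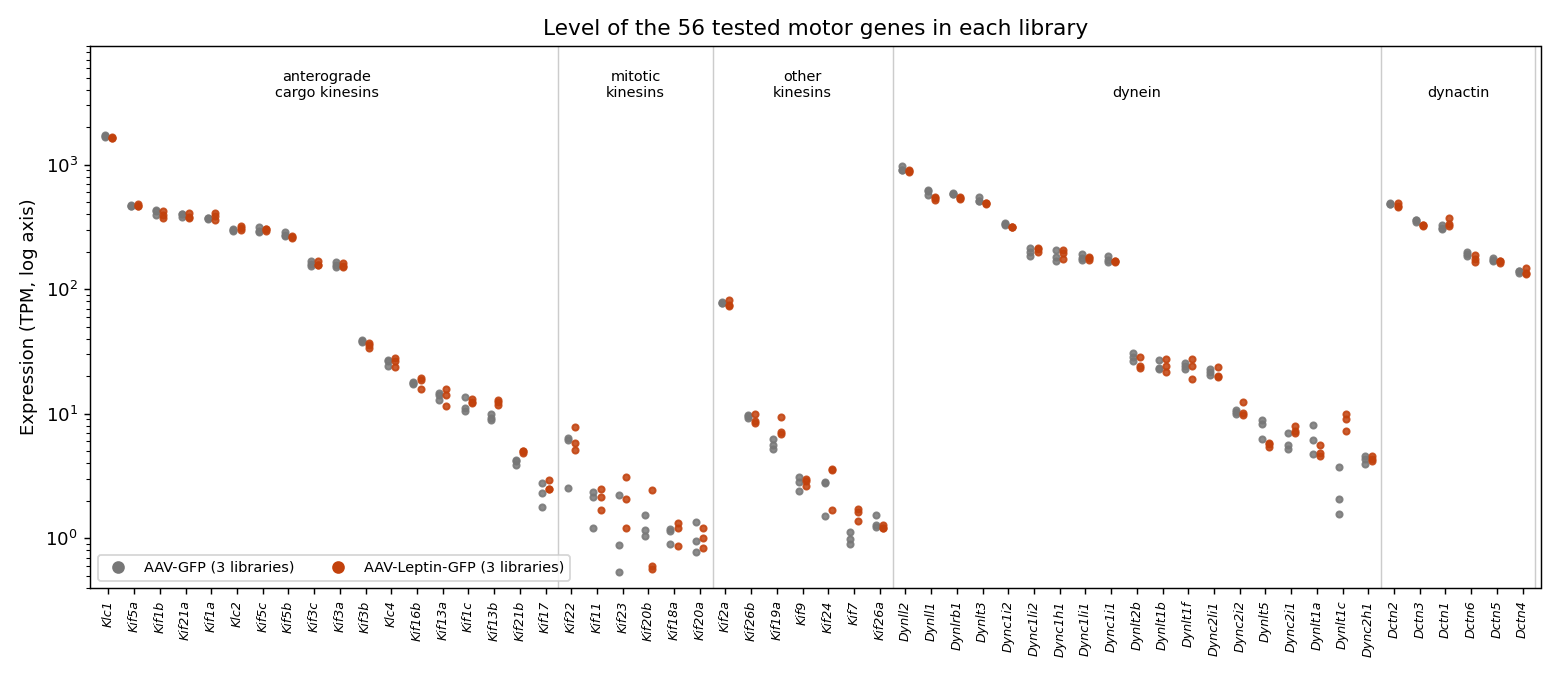
Level of each of the 56 tested motor genes, in TPM on a log axis, ordered within each role group by mean level. Grey points are the 3 AAV-GFP libraries and orange points the 3 AAV-Leptin-GFP libraries. Most pairs of clouds overlap, 25 genes lie at 100 TPM or more, and Dynlt1c is the gene whose clouds stand farthest apart.

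The anterograde cargo kinesins were among the abundant members, and 0 of their 18 tested genes was called in either direction. Klc1, the light chain that links kinesin-1 to cargo, had the highest level of all members, at 1705, 1685 and 1735 TPM with AAV-GFP against 1641, 1671 and 1625 TPM with AAV-Leptin-GFP. Every AAV-Leptin-GFP library lay below every AAV-GFP library, but the log2 fold change was -0.054 (SE 0.03, adjusted p = 0.38) and turned to 0.033 with quantile normalization. Kif5a, the neuronal heavy chain of kinesin-1, held 463, 473 and 463 TPM with AAV-GFP against 465, 480.4 and 470.1 TPM with AAV-Leptin-GFP. Its groups overlapped, with a log2 fold change of 0.016 (SE 0.033, adjusted p = 0.838). The other kinesin-1 heavy chains, the widely expressed Kif5b and the neuronal Kif5c, held 276 ± 9.48 TPM with AAV-GFP against 262 ± 6.4 TPM with AAV-Leptin-GFP and 299.98 ± 15.7 TPM with AAV-GFP against 302 ± 5.88 TPM with AAV-Leptin-GFP respectively. Both lay below Kif5a in every library. Of the other light chains, Klc2 held 300.4 ± 3.6 TPM with AAV-GFP against 309.7 ± 13.4 TPM with AAV-Leptin-GFP and Klc4 26 ± 1.65 TPM with AAV-GFP against 26.1 ± 2.29 TPM with AAV-Leptin-GFP, while Klc3 stayed under the filter at 0.628 and 0.797 TPM.

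In the kinesin-2 family, Kif3a and Kif3b, which form a heteromeric vesicle motor, held 158 ± 7.11 TPM with AAV-GFP against 156 ± 5.36 TPM with AAV-Leptin-GFP and 38.3 ± 0.798 TPM with AAV-GFP against 35.5 ± 1.91 TPM with AAV-Leptin-GFP. Kif3b was at 38.6, 37.4 and 38.8 TPM with AAV-GFP, against 35.9, 37.2 and 33.5 TPM with AAV-Leptin-GFP, without overlap, at a log2 fold change of -0.11 (SE 0.059, adjusted p = 0.385), or -0.063 without AAV-Leptin-GFP replicate 3. Kif3c, a neuronal partner of Kif3a, was at 159.9 and 160.1 TPM, and Kif17, a homodimeric motor of dendrites and cilia, at 2.28 and 2.63 TPM. The most abundant kinesin-3 motors, Kif1b and Kif1a, carry mitochondria and synaptic vesicle precursors. Kif1b held 395, 425 and 432 TPM with AAV-GFP against 373, 392 and 422 TPM with AAV-Leptin-GFP, with overlapping groups and a log2 fold change of -0.077 (SE 0.057, adjusted p = 0.517). It was 0.011 with retained-intron transcripts left out of every gene and each library rescaled. Without that rescaling, the other transcripts of Kif1b held 290, 328 and 345 TPM with AAV-GFP against 294, 322 and 341 TPM with AAV-Leptin-GFP, with overlap. Kif1a held 371 ± 4.39 TPM with AAV-GFP against 386 ± 26.1 TPM with AAV-Leptin-GFP. Among the less abundant kinesin-3 motors, Kif16b, which moves early endosomes, was at 17.7 and 17.9 TPM, Kif13a at 13.8 and 13.8 TPM, and Kif1c, a motor of dense-core vesicles and integrins, at 11.8 and 12.6 TPM. None of these had a nominal p under 0.05.

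Kif13b (ENSMUSG00000060012, chr14:64647265-64809617 on GRCm38, plus strand), a kinesin-3 motor that carries membrane cargo bound to the scaffold Dlg1, had the smallest p of the cargo kinesins. Its values were 9.9, 8.9 and 9.32 TPM with AAV-GFP against 12.9, 12.4 and 11.7 TPM with AAV-Leptin-GFP. The 3 AAV-Leptin-GFP libraries lay above the 3 AAV-GFP libraries, and the log2 fold change was 0.36 (SE 0.08, adjusted p = 0.0736), which did not pass the adjusted threshold. Its long coding transcript Kif13b-203 stood at 8.67, 8.0 and 8.0 TPM with AAV-GFP, against 11, 10.6 and 9.48 TPM with AAV-Leptin-GFP and did not overlap either. Most of the gene's TPM lay on this transcript, so its values are not independent of those of the gene. Of the kinesin-4 motors, which slow microtubule growth, Kif21a held 401, 384 and 405 TPM with AAV-GFP against 377, 412 and 379.7 TPM with AAV-Leptin-GFP, overlapping, with a log2 fold change of -0.026 (SE 0.047, adjusted p = 0.815). Kif21b, at 3.88, 4.22 and 4.21 TPM with AAV-GFP against 4.84, 5.06 and 5.04 TPM with AAV-Leptin-GFP, did not overlap between the groups, with a log2 fold change of 0.23 (SE 0.098, adjusted p = 0.259) that was 0.099 under quantile normalization and 0.54 over protein-coding transcripts.

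Dynein 1 has a pair of heavy chains with the motor domain and a tail of intermediate, light intermediate and light chains. The 5 heavy, intermediate and light intermediate chain genes had a median log2 fold change of -0.038, and 0 was called. Dync1h1, the heavy chain, held 169.96, 209 and 183 TPM with AAV-GFP against 176, 195 and 207 TPM with AAV-Leptin-GFP, with wide overlap. Dync1i2, the ubiquitous intermediate chain, held 336, 340.5 and 326 TPM with AAV-GFP against 319, 316 and 317 TPM with AAV-Leptin-GFP, and all AAV-Leptin-GFP libraries lay lower. Dync1i1, the neuronal intermediate chain, was at 174 and 168 TPM, and the light intermediate chains Dync1li1 and Dync1li2, which bind cargo adaptors, were at 181 and 176 TPM and at 199.96 and 208 TPM. The dynein 2 genes, whose complex carries cargo back along cilia, were far lower: Dynlt2b at 28.5 and 25.4 TPM, Dync2li1 at 21.6 and 21.1 TPM, Dync2i2 at 10.3 and 10.8 TPM, Dync2i1 at 5.95 and 7.45 TPM, and the heavy chain Dync2h1 at 4.28 and 4.37 TPM.

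The dynein light chains, a part of the dynein group, had a lower median than any whole role group. Of 15 light chain genes, 9 were tested, and 8 of these had a log2 fold change below 0 beside 50.1% of all tested genes. The 8 include Dynlt1a, Dynlt1b and Dynlt1f, near-identical copies between which the split of reads is uncertain. Dynlt1b lay at -0.0011 (SE 0.10). The median of the 9 was -0.10. That median lay between -0.12 and -0.035 under those other settings, with 7 of 9 below 0 under quantile normalization and 6 of 9 without AAV-Leptin-GFP replicate 2. Summed over the 15 genes, the AAV-GFP libraries held 2687, 2677 and 2758 TPM and the AAV-Leptin-GFP libraries 2539, 2539.7 and 2516 TPM, without overlap. Of the tested light chains, Dynll2, Dynll1, Dynlrb1 and Dynlt3 lay at 100 TPM or more and the others below that level. The part of level in the median of the group was not tested. Among all tested genes under 100 TPM, 45.9% had a log2 fold change below 0. Of the 1962 genes at 100 TPM or more, 77.9% did, at a median of -0.078. The 25 members at that level had a median of -0.045, with 16 below 0, but 17 of the 25 lay above 0 under quantile normalization, at a median of 0.020, beside 773 of the 1962 genes, at a median of -0.025.

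Dynll2 and Dynll1 encode LC8, a small dimer that clamps the dynein intermediate chains and many other proteins. Dynll2 was the highest dynein gene, at 901, 904 and 974 TPM with AAV-GFP against 877, 907 and 892 TPM with AAV-Leptin-GFP, with overlap and a log2 fold change of -0.054 (SE 0.041, adjusted p = 0.522). Dynll1 (chr5:115297110-115300999, minus strand) had the smallest p of all members that were lower, at 623, 617 and 571 TPM with AAV-GFP against 547, 540.3 and 525 TPM with AAV-Leptin-GFP. All AAV-Leptin-GFP libraries lay below all AAV-GFP libraries, at a log2 fold change of -0.17 (SE 0.044, adjusted p = 0.104). Dynlrb1, the roadblock light chain that joins the intermediate chains further along the tail, was also lower in every AAV-Leptin-GFP library, at 582, 577 and 593 TPM with AAV-GFP against 547, 536 and 541 TPM with AAV-Leptin-GFP and a log2 fold change of -0.11 (SE 0.032, adjusted p = 0.125). Dynlt3, a Tctex-type light chain, held 508, 516 and 553 TPM with AAV-GFP against 494, 485 and 488 TPM with AAV-Leptin-GFP, again without overlap, at a log2 fold change of -0.10 (SE 0.042, adjusted p = 0.238). Dynlt5, a less studied relative of the Tctex-type chains, was low, at 8.3, 6.22 and 8.86 TPM with AAV-GFP against 5.45, 5.7 and 5.84 TPM with AAV-Leptin-GFP, and its log2 fold change of -0.39 (SE 0.13, adjusted p = 0.172) was the lowest of all members. None of these 4 passed the threshold, and 29.8% of genes at 100 TPM or more had an unadjusted p under 0.05 in the lower direction, as Dynll1, Dynlrb1 and Dynlt3 did. Under quantile normalization their log2 fold changes stayed below 0, at -0.072 for Dynll1, -0.030 for Dynlrb1 and -0.016 for Dynlt3.

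**Figure D2:**
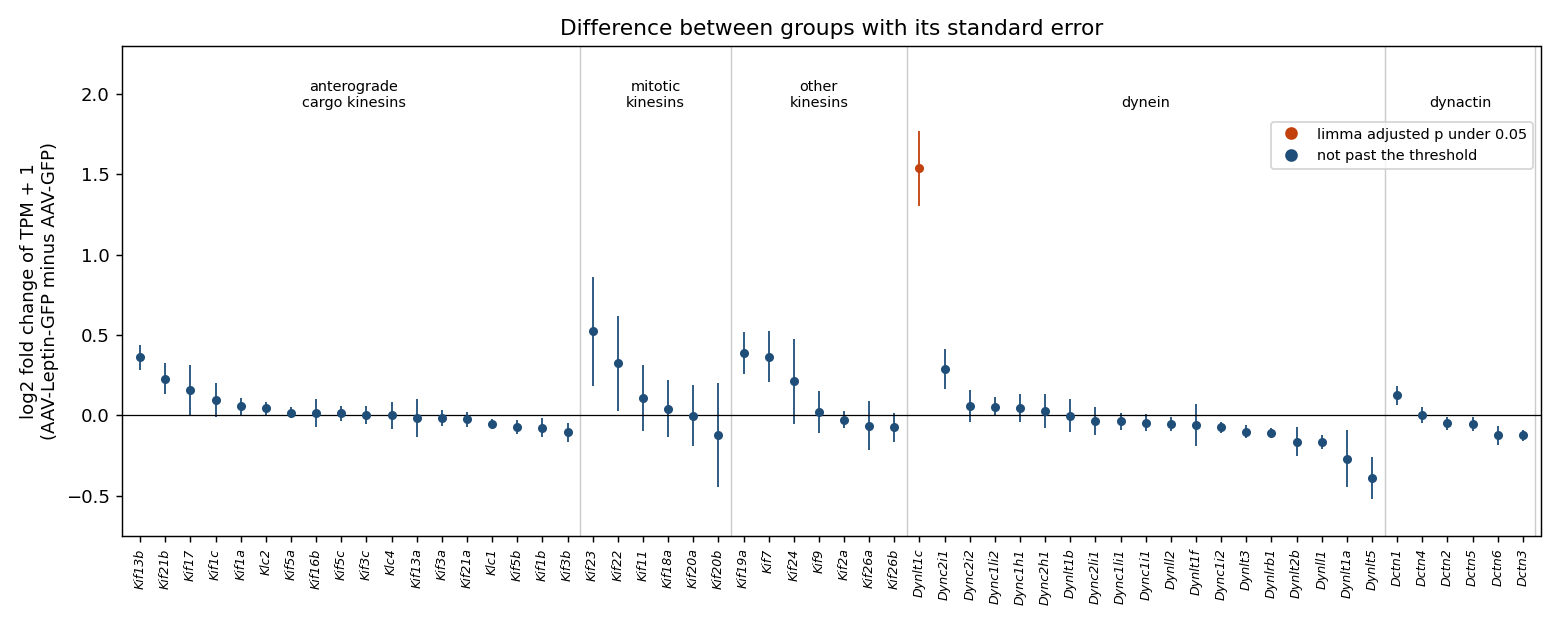
Difference between the groups for the 56 tested motor genes, as log2 fold change of TPM + 1 (AAV-Leptin-GFP minus AAV-GFP, points) with its standard error (bars), ordered by size within each role group. Dynlt1c, at 1.54, is the only gene past the adjusted threshold, and 8 of the 9 dynein light chains lie below 0, Dynlt1b among them at -0.0011.

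Dynlt1c belongs to a family of near-identical Tctex-type light chain copies, and its sequence bears on how its value can be read. Dynlt1a (chr17:6306340-6317500, minus strand), Dynlt1b (chr17:6430112-6436296, plus), Dynlt1c (chr17:6601671-6609774, plus) and Dynlt1f (chr17:6646602-6655900, minus) lie near each other on chromosome 17 of GRCm38. Their coding sequences, 339 bases each in GENCODE M21, differ at 1 position. The first 60 coding bases are shown to make that difference visible, with the differing base in capitals.
Dynlt1a: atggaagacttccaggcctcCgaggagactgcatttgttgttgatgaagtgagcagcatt
Dynlt1b: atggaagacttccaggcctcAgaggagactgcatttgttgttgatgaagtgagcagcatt
Dynlt1c: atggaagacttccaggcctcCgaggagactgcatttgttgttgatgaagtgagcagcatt
Dynlt1f: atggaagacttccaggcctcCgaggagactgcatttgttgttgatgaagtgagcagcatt
Counted from the A of the start codon, Dynlt1b differs from Dynlt1c by C21A, and Dynlt1a and Dynlt1f have the coding sequence of Dynlt1c. Salmon, named in the submitters' processing notes, divides reads among transcripts that share sequence, so the split between these copies is uncertain.

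Dynlt1c was listed at 3.75, 1.57 and 2.08 TPM with AAV-GFP against 10, 9.1 and 7.33 TPM with AAV-Leptin-GFP. The lowest AAV-Leptin-GFP library was thus above the highest AAV-GFP library, at a log2 fold change of 1.54 (SE 0.23, adjusted p = 0.0308). The call was lost, with the direction kept, when no filter on low values was applied (adjusted p = 0.0988), without the mean-variance trend (adjusted p = 0.0621), and when any library other than AAV-GFP replicate 1 was left out (adjusted p from 0.0834 to 0.17). In the other copies the groups overlapped: Dynlt1b held 24.4 ± 2.17 TPM with AAV-GFP against 24.4 ± 2.94 TPM with AAV-Leptin-GFP, Dynlt1f 24.3 ± 1.41 TPM with AAV-GFP against 23.5 ± 4.35 TPM with AAV-Leptin-GFP and Dynlt1a 6.32 ± 1.68 TPM with AAV-GFP against 4.98 ± 0.552 TPM with AAV-Leptin-GFP. Summed over the 4 copies, the libraries held 62.9, 55.1 and 54.3 TPM with AAV-GFP against 66.3, 57.5 and 61.3 TPM with AAV-Leptin-GFP, and the groups overlapped. The pseudogene Dynlt1-ps1 was listed at 5.29 TPM in AAV-Leptin-GFP replicate 2 and at 0 in the other 5 libraries.

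The higher Dynlt1c value was carried by transcripts annotated as retained-intron, a class that keeps intron sequence. Its coding transcript Dynlt1c-201 held 1.67, 1.5 and 1.66 TPM with AAV-GFP against 1.15, 1.52 and 1.89 TPM with AAV-Leptin-GFP, with overlap. The 3 retained-intron transcripts summed to 2.09, 0.0767 and 0.419 TPM with AAV-GFP against 8.85, 7.57 and 5.43 TPM with AAV-Leptin-GFP, and their share of the gene was 26.9% ± 26 with AAV-GFP, against 82% ± 7.24 with AAV-Leptin-GFP. With retained-intron transcripts left out of every gene, an alternative chosen after seeing the data, the log2 fold change of Dynlt1c was -0.048 (adjusted p = 0.92), and over protein-coding transcripts alone it was -0.039 (adjusted p = 0.937). Dynlt1c-204 held 1.54, 0 and 0.419 TPM with AAV-GFP against 4.58, 5.4 and 1.35 TPM with AAV-Leptin-GFP, Dynlt1c-202 0.337, 0 and 0 TPM with AAV-GFP against 2.21, 0.715 and 3.0 TPM with AAV-Leptin-GFP and Dynlt1c-203 0.206, 0.0767 and 0 TPM with AAV-GFP against 2.07, 1.46 and 1.08 TPM with AAV-Leptin-GFP. The groups did not overlap for Dynlt1c-202 and Dynlt1c-203 but did for Dynlt1c-204, where the lowest AAV-Leptin-GFP library was below the highest AAV-GFP library. A search for whole introns kept after coding exons found them in Dynlt1c-202 and Dynlt1c-203. It returned none for Dynlt1c-204, whose reading rests on its annotated class. Of the stretches of 31 bases in Dynlt1c-204, 12.5% also occur in a transcript of another copy, beside all of those in Dynlt1c-202, 97.0% in Dynlt1c-203 and 96.0% in the coding Dynlt1c-201. The value of Dynlt1c-204 thus depends least on the division of reads between the copies. Sharing among the transcripts of Dynlt1c itself was not measured.

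**Figure D3:**
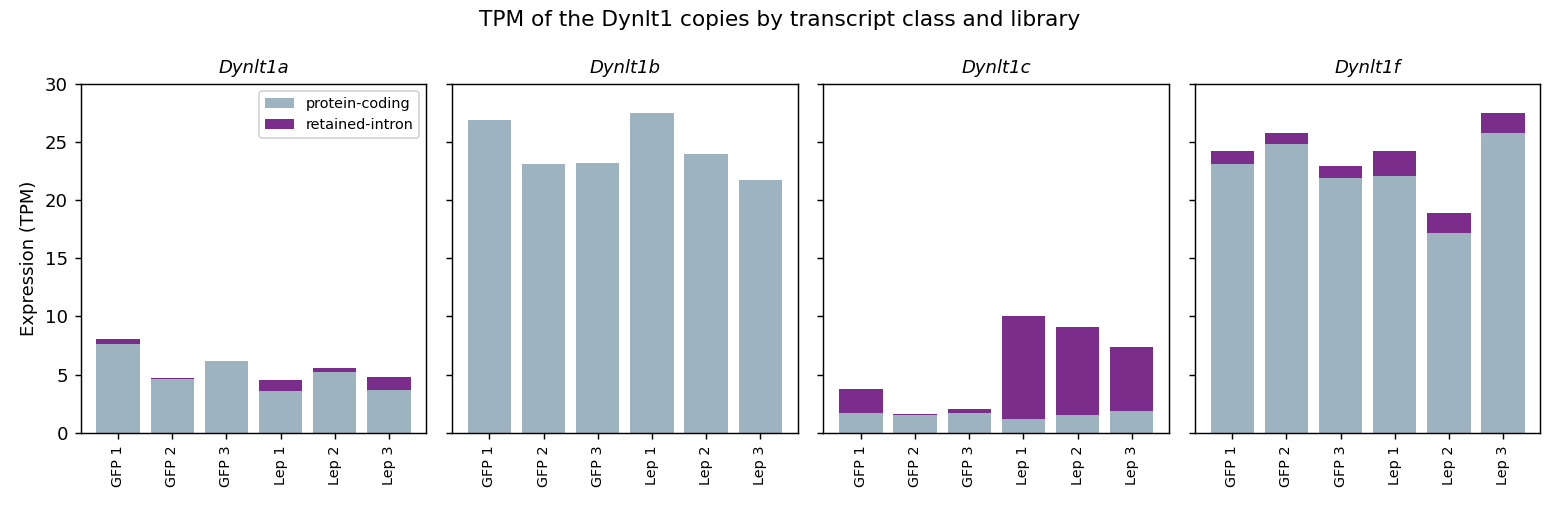
TPM of the 4 Dynlt1 copies in each library (GFP, AAV-GFP; Lep, AAV-Leptin-GFP), stacked by transcript class. In Dynlt1c the protein-coding part stays between 1.15 and 1.89 TPM in all 6 libraries and the retained-intron part reaches 5.43 to 8.85 TPM in the AAV-Leptin-GFP libraries.

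Dynactin links dynein to cargo and holds it on the microtubule. Of its 6 genes that match the symbol pattern, all were tested and 0 was called, at a median log2 fold change of -0.052. Dctn1 encodes p150, the arm that binds dynein and microtubules, and held 327, 305 and 312 TPM with AAV-GFP against 337, 371 and 322 TPM with AAV-Leptin-GFP. Its groups overlapped slightly, at a log2 fold change of 0.12 (SE 0.059, adjusted p = 0.303), the highest of the dynactin genes. It was 0.043 with retained-intron transcripts left out, 0.059 over protein-coding transcripts and 0.067 without AAV-Leptin-GFP replicate 2. Dctn2 (p50, or dynamitin, a shoulder subunit) was the most abundant, at 480.5, 491 and 485 TPM with AAV-GFP against 490.3, 454 and 463 TPM with AAV-Leptin-GFP, with a log2 fold change of -0.05 (SE 0.039, adjusted p = 0.536). Dctn3 (chr4:41714798-41723170, minus strand), the p24 subunit of the same shoulder, had the smallest p: its values were 349, 359 and 357 TPM with AAV-GFP against 329, 319 and 328 TPM with AAV-Leptin-GFP, without overlap, at a log2 fold change of -0.13 (SE 0.034, adjusted p = 0.112) that was -0.046 under quantile normalization. Among the pointed-end subunits, Dctn6 held 183, 194 and 200.3 TPM with AAV-GFP against 189, 167 and 174 TPM with AAV-Leptin-GFP, with a log2 fold change of -0.12 (SE 0.058, adjusted p = 0.294), Dctn5 was at 173 and 167 TPM and Dctn4 at 138 and 138 TPM. The 6 dynactin subunits whose symbols fall outside the pattern, the actin-related and capping proteins of the filament, were all tested and 0 was called, at a median of -0.077. The smallest p values there were those of Capza1, a capping protein subunit (log2 fold change -0.13, SE 0.049, adjusted p = 0.204), Actr10, the pointed-end Arp11 (log2 fold change -0.17, SE 0.078, adjusted p = 0.28), and Actr1a, the filament protein Arp1 (log2 fold change -0.074, SE 0.036, adjusted p = 0.304).

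The mitotic kinesins, which build and elongate the spindle of dividing cells, were low, with Kif22 the highest at a mean of 5.63 TPM over the 6 libraries. Of 11 genes, 6 were tested, 0 was called, and the 11 summed to 13.9, 13.1 and 10.7 TPM with AAV-GFP against 18.8, 14.2 and 12.8 TPM with AAV-Leptin-GFP, with overlap. Kif22, which pushes chromosome arms, held 6.35, 6.17 and 2.53 TPM with AAV-GFP against 7.84, 5.81 and 5.07 TPM with AAV-Leptin-GFP, and Kif11, which separates the spindle poles, 1.21, 2.13 and 2.35 TPM with AAV-GFP against 2.13, 1.68 and 2.46 TPM with AAV-Leptin-GFP. Kif23, a motor of the central spindle, held 2.24, 0.533 and 0.888 TPM with AAV-GFP against 2.05, 3.13 and 1.21 TPM with AAV-Leptin-GFP, and Kif20b, which acts in cytokinesis and also in neurons, 1.17, 1.04 and 1.54 TPM with AAV-GFP against 2.46, 0.599 and 0.568 TPM with AAV-Leptin-GFP. The spread within a group was as wide as the difference for each of them, with log2 fold changes of 0.32, 0.11, 0.52 and -0.12 and standard errors of 0.30, 0.20, 0.34 and 0.32. Kif22 changed sign without AAV-GFP replicate 3, to -0.023, as did Kif11 without AAV-GFP replicate 1, to -0.075, and Kif20b without AAV-Leptin-GFP replicate 2, to 0.057, or replicate 3, to 0.071. Kif18a, which aligns chromosomes, and Kif20a, of the cleavage furrow, were near 1 TPM in both groups. The untested Kif15, Kif2c, Kif4, Kif18b and Kif14 had group means between 0.0684 and 0.758 TPM. A list of 14 genes of dividing cells summed to 15.4, 18.4 and 15.8 TPM and 19.6, 19.5 and 22.5 TPM. None of its 4 tested genes was called, Cdk1, the mitotic kinase, having the smallest p at 0.584, 0.628 and 0.911 TPM with AAV-GFP against 1.21, 3.29 and 2.06 TPM with AAV-Leptin-GFP (log2 fold change 0.85, SE 0.26, adjusted p = 0.14), followed by Birc5 (log2 fold change 0.28, SE 0.15, adjusted p = 0.354) and Tpx2 (log2 fold change -0.029, SE 0.16, adjusted p = 0.949), both spindle factors. Cdk1 was under 1 TPM in every AAV-GFP library and passed the filter only through its AAV-Leptin-GFP values, so its p is a description only. The proliferation marker Mki67 was at 0.411 and 0.602 TPM.

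The other kinesins serve microtubule turnover, cilia and signalling. Kif2a, a depolymerase that restrains axon branches, was the only abundant gene among them, at 77.3, 79.7 and 77.5 TPM with AAV-GFP against 73.3, 82 and 75 TPM with AAV-Leptin-GFP, with a log2 fold change of -0.027 (SE 0.055, adjusted p = 0.838). Kif19a, which trims ciliary microtubules, held 6.23, 5.25 and 5.61 TPM with AAV-GFP against 9.41, 6.87 and 7.2 TPM with AAV-Leptin-GFP, without overlap, at a log2 fold change of 0.39 (SE 0.13, adjusted p = 0.17). Its main coding transcript Kif19a-201 overlapped between groups, at 4.08 ± 0.474 TPM with AAV-GFP against 4.23 ± 0.555 TPM with AAV-Leptin-GFP, and the log2 fold change of the gene was 0.079 over protein-coding transcripts alone. Kif7, the ciliary-tip motor of hedgehog signalling, was near the filter at 1.13, 0.893 and 0.981 TPM with AAV-GFP against 1.62, 1.73 and 1.39 TPM with AAV-Leptin-GFP, with a log2 fold change of 0.36 (SE 0.16, adjusted p = 0.263), without overlap. Kif26b, a kinesin without motor activity, held 9.54 ± 0.26 TPM with AAV-GFP against 9.02 ± 0.817 TPM with AAV-Leptin-GFP (log2 fold change -0.076, SE 0.089, adjusted p = 0.692), and Kif9, of cilia and flagella, 2.78 ± 0.347 TPM with AAV-GFP against 2.83 ± 0.194 TPM with AAV-Leptin-GFP (log2 fold change 0.022, SE 0.13, adjusted p = 0.95). Kif24, at the centriole, was at 2.37 and 2.94 TPM and Kif26a at 1.34 and 1.23 TPM. Kif6, Kif19b, Kif27, Kif28, Kif12 and Kif4-ps were under the filter, at group means of 0 to 0.555 TPM, and Kif2b, Kif22-ps and Kif16bos were listed at 0 in all 6 libraries. The remaining untested members are dynein light chains: Dynlrb2, Dynlt2a1, Dynlt2a2, Dynlt2a3 and Dynlt4, at group means of 0 to 0.989 TPM.

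Retained-intron transcripts stood higher with AAV-Leptin-GFP in other motor genes too, as they did across all genes. The members have 421 transcripts in the table, of which 146 were tested one by one and 0 was called, beside 0.107% of all transcripts called higher and 0.0238% lower. At an unadjusted p under 0.05, 25 were higher and 7 lower, where 12.3% and 6.01% of all transcripts were. The 101 tested protein-coding transcripts had a median log2 fold change of -0.029 beside -0.032 for protein-coding transcripts of all genes. The 31 tested retained-intron transcripts had a median of 1.08 beside 0.88 for all genes, and 20 of them were higher at an unadjusted p under 0.05 and 1 lower, where 50.0% and 1.34% of all tested retained-intron transcripts were. The share of motor transcripts is thus near the background of that class. In 17 of the 31 the AAV-GFP mean was under 1 TPM, so these passed the filter through their AAV-Leptin-GFP values alone or in large part. Without the filter, of the 90 retained-intron transcripts of motor genes that were listed above 0 in any library, 79 had a higher mean with AAV-Leptin-GFP, or 87.8%, beside 83.3% over all genes.

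Among genes with at least 2 tested transcripts, the 3 motor transcripts with the smallest p were retained-intron forms. Dctn2-203, a retained-intron form of 882 bases, held 0.82, 0.546 and 0 TPM with AAV-GFP against 5.99, 5.15 and 4.37 TPM with AAV-Leptin-GFP, at a log2 fold change of 2.12 (SE 0.28, adjusted p = 0.0504). Its sequence is shown at the last coding bases before one of its kept introns (chromosome 10, 127277773 to 127277866, GRCm38, plus strand), beside the same stretch of the coding Dctn2-201. Capitals mark intron bases that the retained-intron form keeps, in the window chr10:127277749-127277808.
Dctn2-203: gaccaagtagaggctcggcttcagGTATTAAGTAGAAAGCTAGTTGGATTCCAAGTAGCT
Dctn2-201: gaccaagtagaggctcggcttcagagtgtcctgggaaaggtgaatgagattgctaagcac
The intron is 94 bases long and begins with GT and ends with AG. Dync1i1-206 held 3.91, 3.36 and 3.54 TPM with AAV-GFP against 6.51, 7.25 and 7.94 TPM with AAV-Leptin-GFP (log2 fold change 0.84, SE 0.13, adjusted p = 0.0609) and Dctn1-211 1.06, 0.112 and 0.502 TPM with AAV-GFP against 3.83, 6.82 and 3.49 TPM with AAV-Leptin-GFP (log2 fold change 1.87, SE 0.33, adjusted p = 0.0649). In each of the 3 transcripts every AAV-Leptin-GFP library lay above every AAV-GFP library, which a choice by smallest p makes likely. Dctn2-203 and Dctn1-211 had an AAV-GFP mean under 1 TPM. They passed the filter only through their AAV-Leptin-GFP values, so their p-values are a description only. The main coding forms of the same genes were not higher: Dctn2-201 held 481 ± 7.31 TPM with AAV-GFP against 454 ± 18.3 TPM with AAV-Leptin-GFP, Dctn1-203 217 ± 8.08 TPM with AAV-GFP against 214 ± 8.35 TPM with AAV-Leptin-GFP and Dync1i1-204 80 ± 4.9 TPM with AAV-GFP against 69.4 ± 5.18 TPM with AAV-Leptin-GFP.

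For each gene, the retained-intron TPM was also summed and tested over all genes whose mean reached 1 such TPM, a measure chosen after the transcript values were seen. Of 47 motor genes with such a transcript, 20 were tested, 11 were called higher and 1 lower, beside 47.7% and 0.275% of the 3274 tested genes. Of the 11, Dctn4, Dync1i2, Dync1li2, Dynlt1c, Klc1 and Kif5b had an AAV-GFP mean under 1 TPM, so they passed the filter only through their AAV-Leptin-GFP values and their calls are a description only. Without a filter, 12 of 39 motor genes were called higher, beside 19.5% of all genes. The 11 were Dctn1, Dctn2, Dctn4, Dctn5, Dync1i1, Dync1i2, Dync1li2, Dynlt1c, Klc1, Klc2 and Kif5b. With AAV-GFP, Dctn1 held 5.9, 1.5 and 2.88 TPM on these transcripts, and with AAV-Leptin-GFP 26, 38.6 and 15.8 TPM, a log2 fold change of 2.69 (SE 0.45, adjusted p = 0.0105), the highest of the motor genes. They were 1.07% ± 0.668 of the gene's TPM with AAV-GFP, against 7.67% ± 2.75 with AAV-Leptin-GFP. Dctn2 went from 7.42, 3.25 and 3.83 TPM to 15.7, 15.2 and 14.2 TPM (log2 fold change 1.53, SE 0.30, adjusted p = 0.0106), and Klc2 from 4.47, 0.217 and 2.13 TPM to 8.24, 15.2 and 9.97 TPM (log2 fold change 2.10, SE 0.54, adjusted p = 0.0181), in each case without overlap between groups. For most of the 11, these transcripts remained a small part of the gene: at most 7.67% ± 2.75 with AAV-Leptin-GFP, Dynlt1c excepted. The number called higher was 5 to 12 with 1 library left out (5 without AAV-Leptin-GFP replicate 2), where 20.9% to 52.7% of all tested genes were. Under quantile normalization, which sets the distribution of this class equal in all libraries, it was 2, beside 4.00% of all tested genes.

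Of the 8 tested genes that were not called, Kif13b and Dynlt1f were higher in every AAV-Leptin-GFP library than in any AAV-GFP library, and the other 6 overlapped. Kif13b had an AAV-GFP mean of 0.743 TPM on these transcripts, so it passed the filter only through its AAV-Leptin-GFP values. All 3 AAV-Leptin-GFP libraries lay higher for 13 of the 20 tested genes and lower for 1, beside 56.9% and 1.19% of all tested genes. The AAV-GFP mean was under 1 TPM in 8 of the 20 and in 1030 of the 3274 tested genes. These counts are thus a description only. Kif1b had the largest retained-intron level of the kinesins, nearly all of it on Kif1b-210 (3475 bases), and was the single gene called lower, at 105, 96.7 and 86.8 TPM with AAV-GFP against 78.9, 69.8 and 81.3 TPM with AAV-Leptin-GFP (log2 fold change -0.32, SE 0.11, adjusted p = 0.0474). This call was lost under 12 of the 14 alternatives run on this measure, each leave-out among them, with the sign kept in all 14. The share of the gene on these transcripts was 23.2% ± 3.26 with AAV-GFP, against 19.4% ± 1.67 with AAV-Leptin-GFP. Dctn6 had 51.8% ± 1.44 and 51.9% ± 3.24 of its TPM on such transcripts, and its level of 93.1, 98.8 and 107 TPM with AAV-GFP against 104, 86.2 and 84.7 TPM with AAV-Leptin-GFP overlapped between groups (log2 fold change -0.12, SE 0.11, adjusted p = 0.41). Dynll1 likewise held 21.9 and 21.8 TPM (log2 fold change -0.0081, SE 0.28, adjusted p = 0.985).

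**Figure D4:**
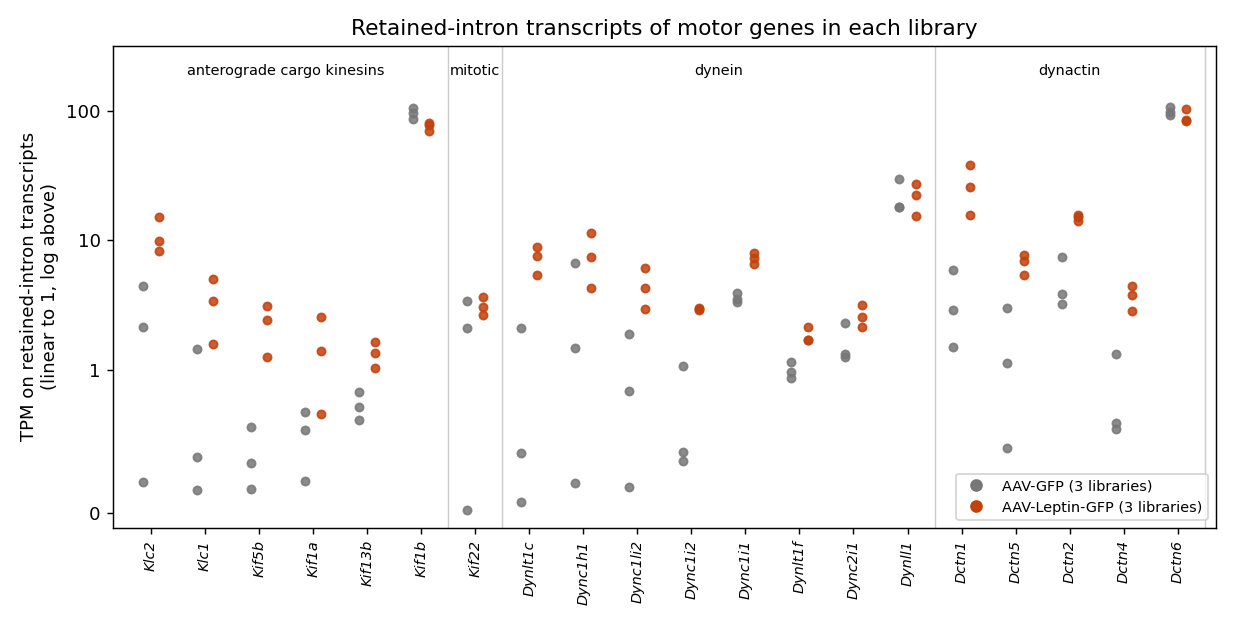
TPM on retained-intron transcripts for the 20 motor genes tested on this measure, in each library (grey AAV-GFP, orange AAV-Leptin-GFP), on an axis that is linear up to 1 and logarithmic above. The AAV-Leptin-GFP points of Dctn1, Dctn2, Dctn4 and Dctn5 all lie above the AAV-GFP points, those of Dctn6 overlap, and those of Kif1b lie below.

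Library-wide measures also differed between the groups. Retained-intron transcripts of all genes held 2.5, 2.1 and 2.27 percent of TPM in the AAV-GFP libraries and 3.6, 3.75 and 3.24 percent in the AAV-Leptin-GFP libraries. For the motor genes alone the shares were 2.64, 2.25 and 2.34 percent and 3.28, 3.03 and 2.91 percent. The libraries also listed 60572, 55476 and 55954 transcripts above 0 with AAV-GFP, against 64423, 64087 and 61474 with AAV-Leptin-GFP. Mitochondrially encoded genes held, in percent of TPM, 5.88 ± 0.234 with AAV-GFP against 8.08 ± 0.949 with AAV-Leptin-GFP, and 5 red blood cell genes 256, 170.1 and 171 TPM and 239, 374 and 1724 TPM. The part of these measures in the retained-intron values of the motor genes was not tested.

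Beyond the motors, 46 genes for adaptors and regulators of motors were examined, of which 45 were tested. Of these, 2 were called higher, Kifc2 and Hook1, and 0 lower, beside 1.54% and 0.0662% of all tested genes, at a median log2 fold change of 0.014, with 8 higher and 2 lower at an unadjusted p under 0.05, beside 11.3% and 8.19% of all tested genes. Kifc2, a kinesin with its motor domain at the C-terminal end, held 33.7, 24.9 and 25.7 TPM with AAV-GFP against 52.1, 52.5 and 48.2 TPM with AAV-Leptin-GFP. Its level was higher in each AAV-Leptin-GFP library than in any AAV-GFP library, at a log2 fold change of 0.85 (SE 0.11, adjusted p = 0.0239). The coding transcript Kifc2-201 was at 20.6, 16.6 and 19.6 TPM with AAV-GFP and 30, 28.4 and 28.9 TPM with AAV-Leptin-GFP (log2 fold change 0.60, limma adjusted p = 0.0596). The retained-intron Kifc2-204 was at 4.78, 4.49 and 3.05 TPM and 12.4, 13.5 and 10.2 TPM (log2 fold change 1.36, limma adjusted p = 0.0519). Neither transcript passed the threshold. The gene stayed past the threshold over protein-coding transcripts alone (log2 fold change 0.62, adjusted p = 0.0319) but not with only retained-intron transcripts left out (log2 fold change 0.68, adjusted p = 0.0634). Hook1, an adaptor that joins dynein and dynactin to endosomes, held 4.37, 2.81 and 2.44 TPM with AAV-GFP against 7.83, 9.5 and 7.65 TPM with AAV-Leptin-GFP, with a log2 fold change of 1.17 (SE 0.18, adjusted p = 0.0338). Its coding transcript Hook1-201 overlapped, at 2.59 ± 0.31 TPM with AAV-GFP against 2.71 ± 0.876 TPM with AAV-Leptin-GFP, and over protein-coding transcripts alone its log2 fold change was 0.020 (adjusted p = 0.976). The processed transcript Hook1-211, which has no coding frame in the annotation, was at 0.935, 0 and 0 TPM and 2.85, 1.88 and 2.79 TPM. Both calls were lost without a filter, without the trend, and when any library but AAV-GFP replicate 1 was left out, with adjusted p from 0.0803 to 0.162 for Kifc2 and from 0.0929 to 0.173 for Hook1 in those leave-outs. With the replicate number as a block, Kifc2 kept its call (adjusted p = 0.0491) and Hook1 did not (adjusted p = 0.0674). Next came Map7d1, a microtubule-binding activator of kinesin-1, at 219, 188 and 203 TPM with AAV-GFP against 266, 271 and 239 TPM with AAV-Leptin-GFP (log2 fold change 0.35, SE 0.072, adjusted p = 0.0641), not past the threshold.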

How the data were processed

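The authors deposited TPM for each Ensembl transcript in each library. The tools named were Salmon 1.6.0, Trim Galore 0.6.6, DESeq2 1.34.0 and FastQC 0.11.9 and the builds GRCm38 and mm10, per the submitters' processing notes, which give them no roles. The libraries are from a stranded mRNA kit, per the labels' protocols. Which annotation release was used is not given in these sources. TPM keeps no read depth, so no counting interval is given. Positions, transcript classes and sequences were looked up by identifier in GENCODE M21 (GRCm38), which held 417 of the 421 motor transcripts.

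TPM were summed by gene, and features with a mean of at least 1 TPM entered limma 3.58.1 (R 4.3.3) as log2(TPM + 1) (mean-variance trend, two-sided, no covariates, Benjamini-Hochberg over all tested features). The fit was tested on simulated gene values first. Plots used matplotlib 3.10.9 under Python 3.11.15, and data.table, version 1.17.8, read the files. Every called member was named, and in each role group the 4 highest in level, the 2 with the smallest p and the largest and smallest fold change, also the 3 transcripts and, per pathway list, the 3 genes with the smallest p and every called gene. Other members are given by level. The members and lists were chosen with earlier results of these data known. Alternatives changed the pseudocount, the filter, the scaling, the classes summed, the moderation, the block and the libraries included. Replicate numbers were not treated as pairs in the main fit. The correlations of same-numbered deviations were 0.034, -0.070 and -0.024, which with 3 libraries per group cannot exclude pairing.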

Additional observations from a re-analysis of the deposited data

How the results depend on the processing

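The median log2 fold change of the motor genes stayed between -0.031 and 0.025 under every alternative. The main counts were 233 higher and 10 lower genes, 36 higher and 8 lower transcripts, and 1 higher motor gene. Counts moved by over 1.5 times as follows, given as higher and lower calls where both moved. Without a filter there were 4 and 0 genes, 4 and 1 transcripts and 0 motor genes. Where the filter was raised to 5 TPM, 27 genes were lower, with 0 and 0 transcripts. On retained-intron TPM, 4 of the 8 motor genes still tested were then higher (11 of 20 as reported). Of the reported 11, only 4 were still tested at that filter, and all 4 kept their call. With pseudocount 0.1 there were 6 and 2 transcripts. With mitochondrial genes removed there were 3 lower genes, 163 and 20 transcripts and 1 motor transcript. Over protein-coding transcripts there were 88 and 3 genes, 15 and 5 transcripts and 0 motor genes. Without the trend there were 35 and 0 genes, 460 and 31 transcripts, 0 motor genes and 3 motor transcripts. Robust moderation gave 23 lower genes. With retained-intron transcripts left out there were 79 and 2 genes and 0 motor genes. Quantile normalization gave 55 higher transcripts and 2 motor genes higher on retained-intron TPM. With the replicate block there were 74 higher and 0 lower genes and 0 higher and 0 lower transcripts. With the block Dynlt1c was called, and 11 motor genes were higher on retained-intron TPM, 10 of them among the reported 11: Dync1i1 (adjusted p = 0.0504) was lost and Dync1h1 (adjusted p = 0.0227, 0.0885 as reported) was added. With 1 library left out, there were 3 to 409 higher and 0 to 11 lower genes, 0 to 1196 higher and 0 to 82 lower transcripts, 0 to 1 higher motor genes, 0 to 7 higher motor transcripts and 5 to 12 motor genes higher on retained-intron TPM. The 1 motor gene lower on retained-intron TPM, Kif1b, became 0 with pseudocount 0.1, without a filter, with the filter at 5 TPM, with quantile normalization, without the trend, with the block, and in each leave-out (0 to 0). The causes were not tested.

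Of 26 named genes, 11 changed sign somewhere, in 23 of 436 values, none of them past the threshold under that alternative. With quantile normalization these were Klc1 (0.033), Kif1b (0.0055), Kif21a (0.062), Dctn2 (0.020), Dynll2 (0.033), Kif11 (-0.030) and Kif9 (-0.11). With mitochondrial genes removed they were Kif21a (0.0086) and Kif2a (0.0072). Over protein-coding transcripts they were Kif1b (0.027), Kif21a (0.0092), Dynlt1c (-0.039) and Kif2a (0.0078), and without retained-intron transcripts Kif1b (0.011), Dynlt1c (-0.048) and Kif22 (-0.010). Leaving 1 library out gave ranges of -0.023 to 0.51 for Kif22, -0.075 to 0.23 for Kif11, -0.50 to 0.071 for Kif20b, -0.074 to 0.0056 for Kif2a and -0.049 to 0.084 for Kif9. All other named genes kept their sign throughout. Depth is unknown, so it cannot be said which low genes could have shown a difference.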

Other observations

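Some of the abundant motor RNA lay on short transcripts that are not annotated as coding. Klc1-205, a processed transcript of 227 bases, held 149.99, 154 and 156 TPM with AAV-GFP against 161, 142 and 147 TPM with AAV-Leptin-GFP, or 8.98% ± 0.165 and 9.12% ± 0.639 of the gene. Dynll1-203, a processed transcript of 539 bases, held 245, 238 and 211 TPM with AAV-GFP against 205, 204 and 217 TPM with AAV-Leptin-GFP, which was 38.3% ± 1.24 and 38.8% ± 2.06 of Dynll1. Dctn6-210, a retained-intron transcript of 769 bases, was the highest transcript of Dctn6, at 68.9, 79.3 and 69.6 TPM with AAV-GFP against 70.2, 60.8 and 66.9 TPM with AAV-Leptin-GFP. These 3 transcripts were chosen after their values were seen, and their groups overlapped.

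Within the coding RNA of a gene, a few isoforms stood apart between the groups while the gene did not. Of the 101 tested protein-coding motor transcripts, all AAV-Leptin-GFP libraries lay higher for 7 and lower for 9. Over all tested protein-coding transcripts the shares were 7.89% and 12.3%, so the motor shares were not above the background. Dync1i1-204, the highest isoform of Dync1i1, held 74.5, 81.9 and 83.7 TPM with AAV-GFP against 73.3, 71.5 and 63.5 TPM with AAV-Leptin-GFP, without overlap (log2 fold change -0.20, SE 0.074, adjusted p = 0.22). Kif1a-210 was at 52.6, 58.4 and 60.6 TPM with AAV-GFP against 62.3, 70.8 and 67.1 TPM with AAV-Leptin-GFP, with all AAV-Leptin-GFP libraries higher (log2 fold change 0.22, SE 0.075, adjusted p = 0.193), while Kif1a-204, the main isoform, was at 292 ± 2.33 TPM with AAV-GFP against 294 ± 18.4 TPM with AAV-Leptin-GFP. Kif5a-202, a shorter form of 3996 bases, held 1.53, 0.674 and 0.424 TPM with AAV-GFP against 3.94, 4.52 and 3.04 TPM with AAV-Leptin-GFP, again without overlap (log2 fold change 1.40, SE 0.28, adjusted p = 0.0717), beside 466 ± 5.92 TPM with AAV-GFP against 468 ± 7.35 TPM with AAV-Leptin-GFP for Kif5a-201. The AAV-GFP mean of Kif5a-202 was under 1 TPM, so it passed the filter only through its AAV-Leptin-GFP values and its p is a description only. None of these isoforms passed limma's adjusted threshold, they were chosen after their values were seen, and the isoforms of a gene share sequence.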
